A study of Mus musculus with 12 samples.

Results

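The genes described here are 10 noncoding host genes of small nucleolar RNAs (snoRNAs): Snhg1, Snhg3, Snhg5, Snhg6, Snhg8, Snhg9, Snhg10, Snhg12, Gas5 and Zfas1. They were taken by symbol, and all 10 were present among the 54735 gene symbols listed for each embryo. All 10 passed the filter, an average of at least 1 TPM (transcript abundance scaled for gene length and to a fixed library sum), which left 11764 genes. They were chosen by class, with no threshold, but with their TPM values in these 12 embryos, and so all 3 contrasts, already known. Their levels, differences between genotypes and spread among embryos are therefore given as a description, with no p-value. Adjusted p-values are printed only for genes outside the set. How many of the 10 passed the limma threshold is given as a description too, beside the share of all genes that did where that share is at hand.

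RNA was profiled from the pallium, the dorsal forebrain wall from which the cortex grows, of 12 C57/Bl6 mouse embryos at stage E13.5. Control embryos (n = 4) were Rnu11wt/flx::Trp53wt/wt::Emx1-Cre+. The cKO embryos (n = 4) were Rnu11flx/flx::Trp53wt/wt::Emx1-Cre+, and the dKO embryos (n = 4) were Rnu11flx/flx::Trp53flx/flx::Emx1-Cre+. Trp53 encodes p53, and the product of Rnu11 is U11, an RNA of the minor spliceosome, which splices a rare class of introns. All 3 genotypes carry Emx1-Cre, which acts in pallial progenitors and their descendants, so the controls have lost 1 copy of Rnu11 in those cells, and blood cells and microglia are not targeted. Each library is labelled as 1 embryo, and nothing in the labels says which embryos were littermates.

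Most vertebrate snoRNAs are cut out of introns after splicing. In a host gene of this class the introns hold the working product, while the spliced RNA made of the exons carries short reading frames that end early and is usually removed by nonsense-mediated decay (NMD), a pathway that degrades translated RNAs with early stop codons. Box C/D snoRNAs guide ribose methylation of ribosomal RNA with the methyltransferase fibrillarin, and box H/ACA RNAs guide the change of uridine to pseudouridine with dyskerin. The level of a host measured by RNA sequencing is thus that of its spliced or partly spliced exons. It can part from the level of the small RNA inside. In GENCODE M21 the pooled exons of all isoforms cover all of Snhg1, Snhg8, Snhg12 and Zfas1. They also cover 3760 of 4118 bases of Gas5 and 1730 of 1880 of Snhg5. In these hosts, reads of introns and of the small RNAs may therefore count towards the host.

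The small RNAs are shown first because their class orders the account of the hosts. In GENCODE M21, 32 snoRNA or small Cajal body RNA symbols lay on the same strand within the 10 genes. Snhg3 held 2 near-copies of Snora73 (U17), an H/ACA RNA needed to cut the ribosomal RNA precursor. Snhg9 held Snora78, Snhg8 held Snora24 and Snhg10 held Scarna13, which is a Cajal body RNA. All 5 end in the ACA box, in capitals, with 3 bases behind it, an arrangement found in 19.0% of the 1529 annotated snoRNA and small Cajal body RNA symbols (290, searched on the transcribed strand only). Sequences are from the GENCODE M21 transcripts (mm10, as transcribed, 5′ to 3′).
Snora73a: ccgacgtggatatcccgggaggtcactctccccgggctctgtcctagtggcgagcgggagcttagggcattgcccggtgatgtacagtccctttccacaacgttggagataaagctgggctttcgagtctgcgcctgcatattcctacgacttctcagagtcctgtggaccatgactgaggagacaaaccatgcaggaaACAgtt
Snora73b: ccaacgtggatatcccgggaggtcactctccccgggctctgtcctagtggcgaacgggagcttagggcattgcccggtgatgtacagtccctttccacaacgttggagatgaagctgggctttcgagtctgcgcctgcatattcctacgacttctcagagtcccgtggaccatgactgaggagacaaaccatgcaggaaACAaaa
Snora78: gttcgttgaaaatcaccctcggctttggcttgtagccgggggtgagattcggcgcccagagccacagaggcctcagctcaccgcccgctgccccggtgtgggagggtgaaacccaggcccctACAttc
Scarna13: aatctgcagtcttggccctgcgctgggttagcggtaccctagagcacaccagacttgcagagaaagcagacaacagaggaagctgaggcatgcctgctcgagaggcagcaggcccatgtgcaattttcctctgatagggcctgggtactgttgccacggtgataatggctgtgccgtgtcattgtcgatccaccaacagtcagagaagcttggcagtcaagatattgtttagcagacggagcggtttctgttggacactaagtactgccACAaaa
Snora24: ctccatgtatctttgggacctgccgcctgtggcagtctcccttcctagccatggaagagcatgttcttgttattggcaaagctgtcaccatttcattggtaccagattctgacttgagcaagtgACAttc

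Snora73a and Snora73b carry the same letter at 198 of 205 positions (96.6%), so reads can be shared between them and their separate levels are uncertain. The hosts Gas5 (9 symbols), Snhg1 (8), Zfas1 (3), Snhg5 (2) and Snhg6 (1) held box C/D RNAs instead. All of these 23 RNAs have CTGA, the D box, within their last 15 bases, as do 30.8% of annotated symbols (471). Examples are Snord47 of Gas5 and Snord50a of Snhg5, with the D box and the C box core TGATGA in capitals (TGATGA lay in the first 25 bases of 21.7% of symbols), and Snord22 of Snhg1, with the D box only. Snhg12 held 4 RNAs, of which 2 ended in ACA and 1 had the D box.
Snord47: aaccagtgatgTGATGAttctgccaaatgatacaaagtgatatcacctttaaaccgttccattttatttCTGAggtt
Snord50a: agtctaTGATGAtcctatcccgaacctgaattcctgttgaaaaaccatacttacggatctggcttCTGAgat
Snord22: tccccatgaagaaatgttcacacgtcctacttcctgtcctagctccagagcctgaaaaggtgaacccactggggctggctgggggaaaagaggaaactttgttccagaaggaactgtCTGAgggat

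The spliced RNA of Snhg9 shows how small the exonic part of such a host can be. Its annotated exons of 106 and 77 bases flank an intron of 252 bases, and Snora78 (128 bases) fills about the middle of that intron. The 10 capitals span the exon junction.
Snhg9: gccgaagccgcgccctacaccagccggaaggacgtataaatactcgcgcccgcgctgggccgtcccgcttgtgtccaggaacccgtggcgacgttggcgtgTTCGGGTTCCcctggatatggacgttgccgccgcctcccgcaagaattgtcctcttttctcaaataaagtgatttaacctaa

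As a check of the genotypes, mean Rnu11 was 144 ± 20.4 TPM in cKO and 164 ± 26.3 in dKO against 640.5 ± 86.4 in the controls, and mean Trp53 was 1.22 ± 0.252 in dKO against 4.24 ± 0.404 in cKO and 3.82 ± 1.73 in control (SD, n = 4). Depth cannot be read from TPM and is unknown, so no counting interval is given. All 9 pallial marker genes averaged at least 1 TPM, as did 1 of 6 ventral markers. The ventral marker Nkx2-1 and the choroid plexus gene Kl lay near 0, but 3 of 4 choroid plexus markers averaged at least 1 TPM. Summed choroid plexus markers were 40.9 to 99.5 TPM in the controls, 71.3 to 247 in cKO and 66.4 to 293 in dKO. Summed microglial markers (6 genes) were 7.22 to 8.25 TPM in the controls, 26.7 to 38.5 in cKO and 8.42 to 10.8 in dKO, and summed vessel markers (6 genes) 9.27 to 11.97, 18.2 to 24.0 and 11.6 to 18.7. Summed pallial markers were 225 to 243 TPM in the controls, 244 to 291 in cKO and 151 to 212 in dKO. Every dKO embryo was thus below every control, with dKO embryo 1 lowest. In dKO embryo 2, which stood apart, mitochondrial genes took 5.44% of the TPM, against 0.790% to 1.01% in the other dKO. The median of all tested genes was 0.25 higher in cKO than in control on the log2(TPM + 1) scale, was -0.01 for dKO against control and was 0.26 lower in dKO than in cKO. Protein-coding genes took 16.1% to 19.99% of the TPM in cKO and 14.4% to 16.3% in the other genotypes, so differences are read against these medians.

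In controls the 10 genes covered a range from 1.96 to 70.9 TPM. Gas5, named for its accumulation in growth-arrested cells, was highest, followed by Snhg5, Snhg6, Snhg8, Snhg1, Snhg3, Zfas1, Snhg9, Snhg12 and Snhg10. Control ranges overlapped between Gas5 and Snhg5, Snhg5 and Snhg6, Snhg6 and Snhg8, and Zfas1 and Snhg9. Compared within each control embryo, Snhg5 was always above Snhg6, and Snhg6 above Snhg8. The order of the other pairs varied: Gas5 was below Snhg5 in control embryo 3, and Zfas1 below Snhg9 in control embryo 4. The plot of TPM by embryo shows 2 features: Snhg3, Snhg8, Snhg9 and Snhg10 stand higher in both mutants than in every control, and dKO embryo 1 is the highest library for each gene. In tissue RNA, more transcript per cell and more cells of a type that carries the transcript cannot be told apart.

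**Figure D1:**
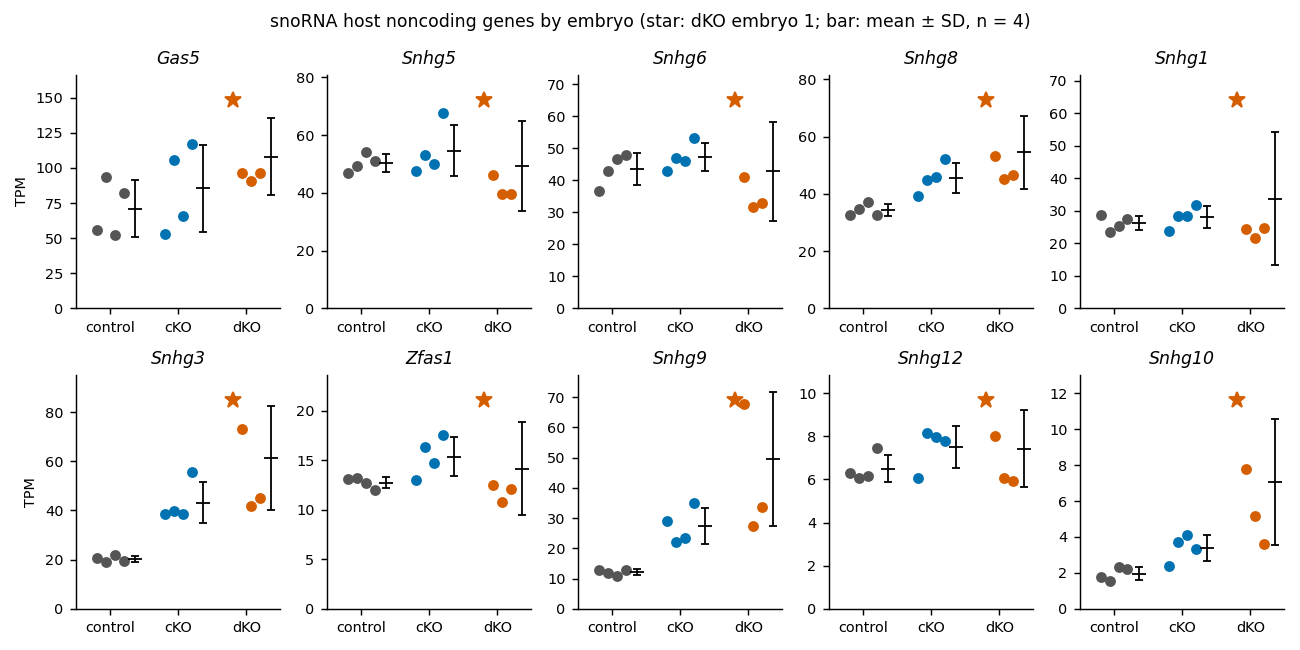
TPM of the 10 host genes in each embryo, 1 panel per gene on its own axis from 0, with points for embryos 1 to 4 of each genotype from left to right, a star for dKO embryo 1 and a bar for the mean ± SD (n = 4). The star is the highest of the 12 points in all 10 panels, and in Snhg3, Snhg8, Snhg9 and Snhg10 every cKO and dKO point lies above every control point.

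Snhg3 (ENSMUSG00000085241.7, chr4:132348014-132353686, minus strand, 986 exonic bases) read 20.5, 18.9, 21.9 and 19.4 TPM in controls 1 to 4. The cKO embryos read 38.6, 39.9, 38.6 and 55.6, and the dKO embryos 85.0, 73.2, 42.0 and 45.2. No mutant embryo overlapped the controls, while the dKO embryos fell into 2 high and 2 that were within the cKO range. Means were 20.2 ± 1.32, 43.2 ± 8.29 and 61.3 ± 21.1 TPM (SD, n = 4 each), a ratio to control of 2.14 in cKO and 3.04 in dKO. On the log2(TPM + 1) scale the difference was 1.05 ± 0.21 (SE) in cKO, 1.495 ± 0.206 in dKO and 0.45 ± 0.21 between the mutants.

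Snhg9 (ENSMUSG00000090101.1, chr17:24719531-24719965, minus strand) read 12.8, 11.9, 10.7 and 12.7 TPM in the controls, 29.1, 22.2, 23.4 and 35.0 in cKO, and 69.1, 67.9, 27.5 and 33.6 in dKO. It showed the widest step of the 10 from control to dKO, a ratio of means of 4.12, with 2.28 for cKO. Again dKO embryos 1 and 2 stood far above the other 2, which lay within the cKO range. Means were 12.02 ± 0.977, 27.4 ± 5.90 and 49.5 ± 22.1 TPM (SD, n = 4 each). The log2 difference was 1.11 ± 0.27 (SE) in cKO and 1.85 ± 0.27 in dKO.

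Snhg10 (ENSMUSG00000113722.1, chr12:105030617-105032279, minus strand) was the scarcest of the 10. Its controls read 1.77, 1.55, 2.32 and 2.20 TPM, the cKO embryos 2.38, 3.69, 4.11 and 3.31, and the dKO embryos 11.6, 7.80, 5.15 and 3.62. The lowest cKO embryo stood just above the highest control, and 3 of the 4 dKO embryos stood above every cKO embryo. Means were 1.96 ± 0.359, 3.37 ± 0.739 and 7.05 ± 3.51 TPM (SD, n = 4 each). Differences on the log2(TPM + 1) scale, which understates change at such low levels, were 0.55 ± 0.25 (SE) in cKO and 1.35 ± 0.25 in dKO.

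Snhg8 (ENSMUSG00000104960.1, chr3:123507552-123508404, minus strand) moved less. It read 32.7, 34.7, 37.3 and 32.8 TPM in the controls, 39.4, 44.7, 46.0 and 52.0 in cKO, and 72.9, 53.3, 45.1 and 46.8 in dKO. All mutants were above all controls, with dKO embryos 3 and 4 inside the cKO range. Means were 34.4 ± 2.16, 45.5 ± 5.21 and 54.5 ± 12.8 TPM (SD, n = 4 each), and the log2 difference was 0.39 ± 0.14 (SE) in cKO and 0.63 ± 0.14 in dKO. Median-shift centring, which removes the shift of all genes, left 0.14 of the cKO difference of Snhg8, against 0.80 for Snhg3 and 0.86 for Snhg9.

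Among the hosts of box C/D RNAs, the controls and both mutants overlapped for all 5 genes. Gas5 (ENSMUSG00000053332.13, chr1:161034422-161038539, plus strand) read 55.6, 93.8, 52.2 and 82.2 TPM in the controls, 52.9, 106, 66.0 and 117 in cKO, and 149, 96.6, 91.0 and 96.3 in dKO. Control and cKO embryos each fell into 2 high and 2 low, whereas dKO embryos 2 to 4 lay close together. Their mean without embryo 1 was 94.6 ± 3.12 TPM, and with it 108 ± 27.1 (SD). The log2 difference of dKO from control was 0.62 ± 0.27 (SE), the largest among the C/D hosts.

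Snhg1 (ENSMUSG00000108414.1, chr19:8723475-8726443, plus strand) is the host in which stable snoRNAs were found to come from the introns of a gene whose exons have no lasting product. Its values were 28.7, 23.6, 25.5 and 27.5 TPM in the controls, 23.8, 28.4, 28.5 and 31.8 in cKO, and 64.2, 24.4, 21.8 and 24.6 in dKO. A single embryo set the dKO mean of 33.7 ± 20.3 TPM, which was 23.6 ± 1.59 without it, against 26.3 ± 2.23 in control (SD).

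Snhg5 (ENSMUSG00000097195.9, chr9:88521050-88522929, minus strand) read 46.8, 49.4, 54.1 and 51.0 TPM in the controls, 47.7, 53.1, 50.1 and 67.5 in cKO, and 72.3, 46.3, 39.6 and 39.6 in dKO. Snhg6 (ENSMUSG00000098234.7, chr1:9941959-9944118, minus strand) read 36.6, 42.8, 46.6 and 47.8 in the controls, 43.0, 47.0, 46.0 and 53.2 in cKO, and 65.2, 41.01, 31.8 and 33.0 in dKO. Both genes had the same form: dKO embryo 1 above every other library, and dKO embryos 3 and 4 below every control. Without embryo 1 the dKO means were 41.9 ± 3.86 TPM for Snhg5 and 35.3 ± 5.01 for Snhg6, against 50.3 ± 3.04 and 43.4 ± 5.02 in control (SD).

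Zfas1 (ENSMUSG00000074578.13, chr2:167062934-167065862, plus strand), a host that starts beside the gene Znfx1 on the opposite strand, read 13.1, 13.2, 12.7 and 11.98 TPM in the controls, 12.95, 16.3, 14.7 and 17.5 in cKO, and 21.1, 12.5, 10.8 and 12.1 in dKO. Its controls were the tightest of the 10 genes, with a coefficient of variation of 4.30%. Snhg12 (ENSMUSG00000086290.9, chr4:132308623-132311024, plus strand), the host of both RNA classes, read 6.32, 6.06, 6.17 and 7.44 in the controls, 6.09, 8.18, 7.98 and 7.78 in cKO, and 9.69, 8.01, 6.07 and 5.94 in dKO. Both genes overlapped between all genotypes, and again dKO embryo 1 was the highest library.

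Set side by side, the 4 hosts whose RNAs all end in the ACA box were those with no overlap between control and either mutant, and the 5 C/D hosts and Snhg12 overlapped. This grouping was read off the values of the 10 genes as deposited, so it describes them and was not tested. Overlap was scored on that scale only, which in cKO carries the all-gene shift of 0.25. After median-shift centring the cKO differences were 0.14 for Snhg8 and 0.31 for Snhg10, against 0.80 for Snhg3 and 0.86 for Snhg9. In cKO against control 3 genes were called higher (Snhg3, Snhg8 and Snhg9, limma adjusted p under 0.05), where 34.3% of all tested genes were, and 4 did not overlap and were higher, where 32.7% of all genes were. The members' median log2 difference was 0.24, against 0.25 for all genes. In dKO against control 4 were called higher (Snhg3, Snhg8, Snhg9 and Snhg10; all tested genes 1.79%), the same 4 did not overlap (all genes 5.14%), and the median was 0.41 against -0.01. In dKO against cKO 2 were called higher (Snhg9 and Snhg10; all genes 0.612%), none was clear of overlap (all genes 0.417%), and the median was 0.17 against -0.26. No gene of the set was called lower by limma in any contrast (0 at an unadjusted p under 0.05), where 1.09%, 3.4% and 38.8% of all genes were. Because the set was drawn up from these embryos, nothing further is read from the counts, and the contrasts share their control and mutant embryos.

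**Figure D2:**
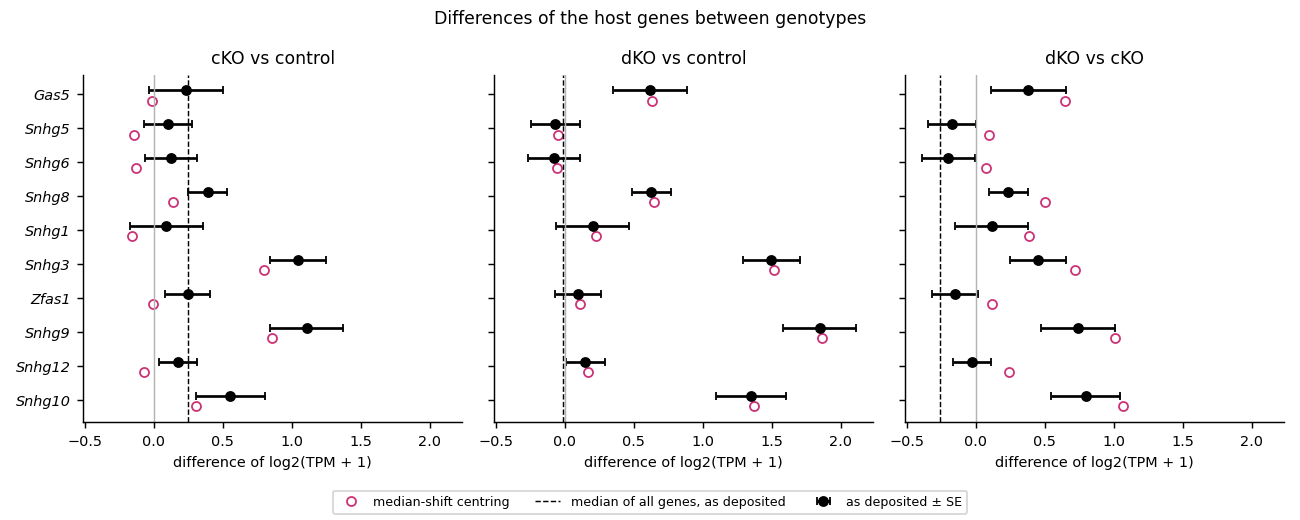
Difference of mean log2(TPM + 1) for each host gene in the 3 contrasts, as deposited (filled points ± SE from the limma fit) and after median-shift centring (open points). The dashed line is the median of all 11764 genes as deposited, 0.25, -0.01 and -0.26 from left to right; the open points of Snhg3 and Snhg9 remain above 0 in every panel, while 6 genes have open points below 0 in the left panel.

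Direction depended on scaling for the genes with small differences. Over the values as deposited, protein-coding rescaling, median-shift centring and quantile normalization, the sign of the cKO difference from control changed for 6 genes (Snhg1, Snhg5, Snhg6, Snhg12, Gas5 and Zfas1), and the sign of the difference between the mutants for 4 (Snhg5, Snhg6, Snhg12 and Zfas1). No sign changed for dKO against control. After protein-coding rescaling 2, 4 and 4 of the 10 were called higher in cKO against control, dKO against control and dKO against cKO (all genes 11.3%, 5.44% and 1.4%), and after centring 1, 4 and 3 (all genes 3.72%, 3.74% and 2.1%). Of the genes counted, Snhg8 was nearest the threshold. Its cKO call was lost without any 1 of the controls, cKO embryos 2, 3 or 4 or dKO embryos 2 or 4 (difference 0.33 to 0.46), and its dKO call without control embryo 1, 2 or 4 (0.48 to 0.71 over all left-out embryos). Microglial and vessel marker sums, which were higher in every cKO embryo than in every control, moved with the cKO difference, and their part in it was not tested.

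Spread among the dKO embryos was the other feature of the set. The coefficient of variation in dKO ran from 23.4% (Snhg8) to 60.2% (Snhg1), against 4.30% to 28.6% in control and 9.07% to 36.05% in cKO. Embryo 1 was the highest of the 12 libraries for 10 of 10 genes, where it was the highest for 4.64% of all tested genes. Embryo 2 came next among the dKO embryos for 9 of 10, Snhg1 being the exception, where 25.1% of all genes placed it so. Embryo 1 reached at least 1.5 times the mean of the other dKO embryos for 9 of 10 genes (all genes 4.3%), from 1.51 times for Snhg8 to 2.72 times for Snhg1, and 1.45 times for Snhg12.

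On the log2 scale, embryo 1 exceeded the mean of the other 3 dKO embryos by a median of 0.78 over the 10 genes (0.49 to 1.41), while the median of all tested genes in that embryo was -0.03. The same deviation had a median of 0.42 over 8 other noncoding snoRNA hosts, 0.18 over 37 protein-coding snoRNA hosts, 0.19 over 18 snoRNP proteins and assembly factors, 0.23 over 13 protein-coding genes with known NMD-sensitive transcripts and 0.08 over 20 NMD factors. Embryo 2 had a median of 0.00 over the 10 genes and was above 0 for 5 of them, over a range from -0.41 to 0.75. Embryos 3 and 4 were below the mean of the others for all 10 genes, with medians of -0.40 and -0.37. Pallial marker sums were lower in every dKO embryo than in every control and were lowest in embryo 1. The mitochondrial share was highest in embryo 2, and the part of either in the spread was not tested.

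**Figure D3:**
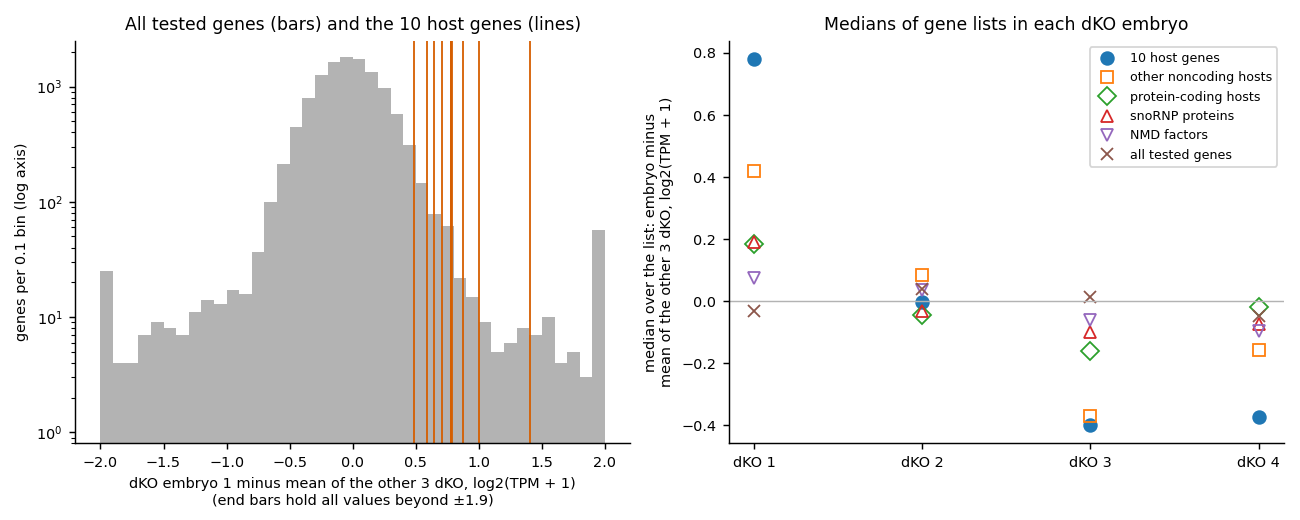
Left, all 11764 tested genes by the difference of dKO embryo 1 from the mean of the other 3 dKO embryos in log2(TPM + 1) (bars, log axis) with 1 line per host gene. Right, the median of the same difference over each gene list for each dKO embryo in turn; the host genes lie between 0.49 and 1.41 in the left panel and their median falls from 0.78 in embryo 1 to -0.40 in embryo 3.

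Without embryo 1 the dKO means of the 4 ACA hosts were 53.4 ± 17.2 TPM for Snhg3, 43.0 ± 21.8 for Snhg9, 5.52 ± 2.11 for Snhg10 and 48.4 ± 4.36 for Snhg8 (SD, n = 3). With both embryos 1 and 2 left out, an alternative chosen after seeing the data, the log2 differences from control were 1.07 for Snhg3, 1.27 for Snhg9, 0.86 for Snhg10 and 0.41 for Snhg8. The step from cKO to dKO fell from 0.74 to 0.54 for Snhg9 and from 0.79 to 0.54 for Snhg10 without embryo 1, to 0.55 and 0.72 without embryo 2, and to 0.17 and 0.30 without both, and neither gene passed the threshold in any of these 3 fits. Snhg9 also missed it without any 1 of the controls or cKO embryos 1, 2 or 3, and Snhg10 without cKO embryo 1 or 4, with differences no lower than 0.54. Without embryo 1 the members' median in dKO against cKO went from 0.17 to -0.03. The 3 genes then past the threshold were Snhg5, Snhg6 and Zfas1, all lower in dKO, by 0.37, 0.42 and 0.35. With every embryo kept, 38.8% of all tested genes were called lower in dKO than in cKO, and the all-gene median was -0.26. The share of all genes called lower without embryo 1 is not given here, so nothing is read from this count.

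The small RNAs inside the hosts were tested as genes outside the set. Of the 32 symbols, 24 were listed at 0 TPM in all 12 embryos, among them all 23 of up to 100 bases and every C/D RNA shown above except Snord22. Among all annotated symbols, 0 of 288 of up to 80 bases had a value above 0 in any embryo. From 81 to 100 bases 16 of 173 (9.25%) did, and above 180 bases 29 of 39 (74.4%). For Gas5, Zfas1, Snhg5 and Snhg6 every embedded RNA was thus listed at 0. Those of Gas5, Zfas1 and Snhg5 lie wholly within annotated host exons, so their reads may have been counted with the host. A comparison of host and product could be made only for longer RNAs, 6 of which averaged at least 1 TPM.

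**Figure D4:**
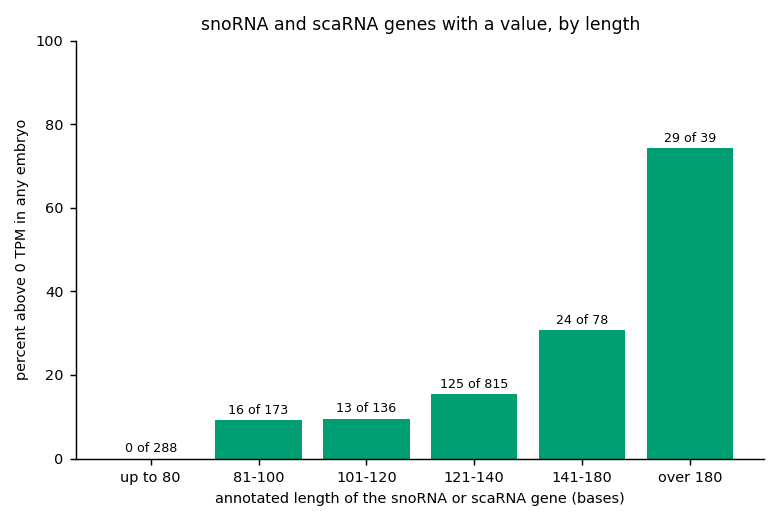
Share of annotated snoRNA and small Cajal body RNA symbols with a value above 0 TPM in at least 1 of the 12 embryos, by annotated length; the numbers over the bars are symbols above 0 and symbols in the class. The share rises from 0 of 288 up to 80 bases to 29 of 39 above 180 bases.

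None of the RNAs of the 4 ACA hosts was called higher in either mutant than in the controls, as deposited, after protein-coding rescaling or after centring. Snora73a, in Snhg3, stood at 2737 ± 52.1 TPM in the controls, 2661 ± 172.7 in cKO and 2781 ± 219.6 in dKO (SD, n = 4), while Snhg3 itself was 2.14 and 3.04 times its control mean. The difference of Snora73a in dKO was 0.02 ± 0.10 on the log2 scale (SE, limma adjusted p = 0.938), and that of Snora73b was -0.01 ± 0.13 (adjusted p = 0.979). Both stood more than an order of magnitude above their host on this length-scaled measure. Scarna13, in Snhg10, stood at 664 ± 42.3, 671 ± 75.9 and 756 ± 64.0 TPM, a dKO difference of 0.19 ± 0.11 (adjusted p = 0.370) beside a host ratio of 3.5995. Between the mutants, Scarna13 was higher in dKO by 0.40 after protein-coding rescaling and 0.44 after centring (limma adjusted p = 0.0487 and 0.0459) but not as deposited (0.206).

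Snora78, in the intron of Snhg9, was lower in cKO where its host was higher. It read 433, 319, 598 and 632 TPM in the controls, 389.6, 261, 176 and 291 in cKO, and 380.0, 484, 375 and 434 in dKO. Control and cKO overlapped through control embryo 2 and cKO embryo 1. The cKO difference was -0.83 ± 0.25 (SE, limma adjusted p = 0.0240), also after protein-coding rescaling (0.0221) and median-shift centring (0.0197). Leaving out control embryo 3, control embryo 4, cKO embryo 2 or cKO embryo 3 ended the call, with adjusted p up to 0.0682, as did quantile normalization and no filter on low values (up to 0.0748). The dKO difference from control was -0.20 ± 0.25 (adjusted p = 0.719). Between the mutants Snora78 was higher in dKO by 0.85 after rescaling and 0.90 after centring (adjusted p = 0.0470 and 0.0497), but its difference of 0.63 as deposited missed the threshold (0.0603).

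Snora24, in Snhg8, read 20.4, 18.2, 17.0 and 25.5 TPM in the controls, 12.3, 6.51, 0 and 5.77 in cKO, and 14.99, 26.4, 3.17 and 16.9 in dKO. Every cKO embryo was below every control, a difference of -2.04 ± 0.71 (SE, limma adjusted p = 0.0412), which missed the threshold after protein-coding rescaling (0.0629), after centring (0.0801), and after quantile normalization, a pseudocount of 0.1 TPM or no filter on low values (up to 0.0974). It also missed it when 1 embryo was left out, be it any of the 4 controls, cKO embryo 2, 3 or 4, or dKO embryo 4 (up to 0.0890). Snord22, in Snhg1, was listed at 0 in control embryo 2 and cKO embryos 1, 2 and 3, at 3.16 to 5.28 TPM in the other controls and cKO embryo 4, and at 6.15, 28.4, 19.4 and 8.86 in dKO. It was higher in dKO than in cKO under all 21 alternatives (3.33 ± 0.65, limma adjusted p = 0.00309), and dKO embryo 1, highest for the host Snhg1, had its lowest dKO value. Annotated exons of partly spliced isoforms cover Snora24 and Snord22 entirely and 159 of the 205 bases of Snora73a, so their reads may be shared with the host, and no annotated host exon overlaps Snora78, Scarna13 or Snora73b.

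**Figure D5:**
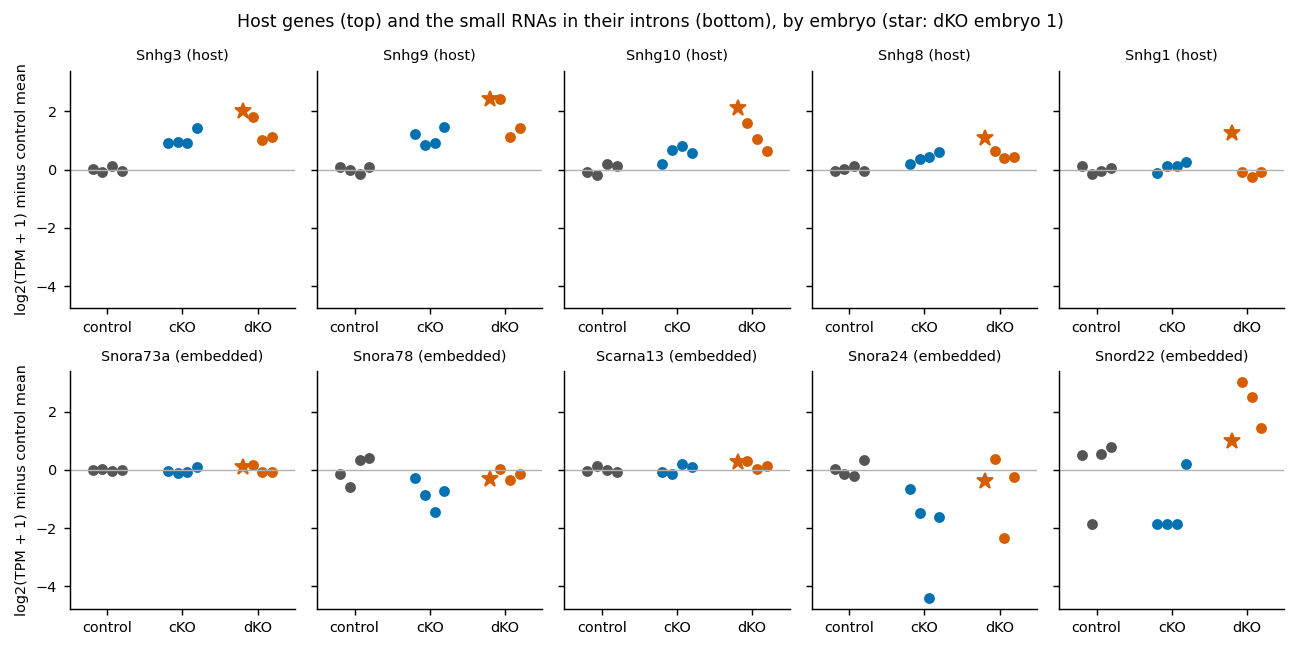
log2(TPM + 1) of 5 host genes (top) and of 1 small RNA within each (bottom) in every embryo, minus the mean of the 4 controls, on 1 common axis, with a star for dKO embryo 1. Snhg3, Snhg9, Snhg10 and Snhg8 lie above 0 in all 8 mutants, while Snora73a and Scarna13 stay near 0 and Snora78 and Snora24 lie below 0 in all cKO embryos.

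Other noncoding snoRNA hosts were examined from a list of 13, of which 8 could be tested. In cKO 4 rose (Snhg15, Rian, Snhg14 and Snhg18; all genes 34.3%) and 0 fell, at a median difference of 0.39 against 0.25 for all genes. Snhg15 went from 7.40 to 8.47 TPM in controls to 14.6 to 19.4 in cKO (1.03 ± 0.20 SE, limma adjusted p = 0.00341), and Rian, the maternally expressed host of a large C/D cluster, from 19.4 to 23.2 to 36.4 to 44.7 (0.95 ± 0.13, adjusted p = 0.000511), so a C/D host outside the set also stood clear of its controls. Both were called under all 21 alternatives, while Snhg14 was lost after rescaling (0.209), after centring (0.445) and without control embryo 1, control embryo 4 or cKO embryo 2 (up to 0.0792). Of the members, Snhg3, Snhg8, Snhg9, Snhg10 and Gas5 had their highest mean in dKO, and so did Snhg1, through dKO embryo 1. Among the 8 other hosts, Snhg20, Epb41l4aos and Dancr likewise had their highest mean in dKO (8.75, 7.05 and 11.6 TPM). By limma, 3 of the 8 fell from cKO to dKO (all genes 38.8%). Snhg14 fell by 0.99 (limma adjusted p = 0.00112), also after rescaling (0.0228) and centring (0.0373), and Snhg15 and Rian fell by 0.77 and 0.70 (adjusted p = 0.0110 and 0.00208), though not after centring (0.154 and 0.0815).

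In dKO against control 2 of the 8 rose (all genes 1.79%), Snhg18 (0.35 ± 0.09 SE, limma adjusted p = 0.0498) and Snhg20 (0.60 ± 0.15, adjusted p = 0.0388). When each of the 12 embryos was left out in turn, Snhg18 was called in 1 fit (adjusted p up to 0.141) and Snhg20 in 4 (up to 0.0971). Dancr, named after its values were seen, missed the threshold in dKO against control as deposited (1.01, adjusted p = 0.0785) and after centring (0.0600) but passed it after protein-coding rescaling (1.07, adjusted p = 0.0423), and every dKO embryo was above every control. Dancr read 23.6 TPM in dKO embryo 1, 10.004 in embryo 2 and 5.93 and 6.64 in embryos 3 and 4. Embryo 1 was likewise highest of the dKO and embryo 2 next in Snhg15 (16.5, 9.13, 7.38 and 7.04), Snhg17, Snhg20 and Epb41l4aos. In Snhg14 and Snhg18 embryo 2 was highest, and in Rian embryo 1 was lowest (19.9, 22.2, 27.7 and 30.6). Protein-coding hosts, which make a protein from the exons, showed 3 of 37 higher in cKO (Eef2, Rpl7a and Rpl21; all genes 34.3%) and none after protein-coding rescaling (all genes 11.3%), with a median of 0.15 against 0.25 for all genes. Rpl7a held without any 1 embryo, Eef2 in 7 of 12 such fits and Rpl21 in 2. In dKO against control limma called none of the 37 (4 at an unadjusted p under 0.05).

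NMD factors were listed because the spliced hosts are substrates of that pathway. Of 20 tested, 5 rose (all genes 34.3%) and 0 fell in cKO, at a median of 0.19 against 0.25 for all genes, and none was called after centring. The largest was Smg1, the kinase that phosphorylates UPF1, which read 9.09 to 11.6 TPM in the controls, 14.3 to 17.1 in cKO and 10.9 to 14.3 in dKO (cKO difference 0.57 ± 0.10 SE, limma adjusted p = 0.00221; centred 0.0746). Nbas also rose, but its call was lost in 7 of 12 fits with 1 embryo left out (adjusted p up to 0.105). Upf1, the central helicase of the pathway, was not called in any contrast (cKO 0.11 ± 0.17, adjusted p = 0.608; dKO -0.26 ± 0.17, adjusted p = 0.462). In dKO against control limma called 0 of 20 (5 at an unadjusted p under 0.05), and in dKO against cKO 7 fell (all genes 38.8%), at a median of -0.29 against -0.26 for all genes, none of them after centring.

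Protein-coding genes with known NMD-sensitive transcripts gave 2 of 13 higher in cKO (all genes 34.3%), at a median of 0.14 against 0.25, namely the stress gene Gadd45a (0.54 ± 0.15 SE, limma adjusted p = 0.0197) and Nat9 (0.54 ± 0.16, adjusted p = 0.0210), neither of them after rescaling (0.0794 and 0.109) and Gadd45a not without cKO embryo 4 (0.0569). No call was made among the 13 by limma in dKO against control (2 at an unadjusted p under 0.05). Among 18 snoRNP proteins and assembly factors, 3 were higher in cKO (Znhit6, Pih1d1 and Ruvbl1; all genes 34.3%) and none after rescaling, at a median of 0.13 against 0.25, and the 3 calls held in 5, 4 and 8 of the 12 fits with 1 embryo left out. Of the 18, limma called none in dKO against control (4 at an unadjusted p under 0.05). Fibrillarin (Fbl), the methyltransferase of C/D particles, averaged 14.8 ± 2.19 TPM in the controls, 16.3 ± 1.76 in cKO and 14.1 ± 1.30 in dKO. Dyskerin (Dkc1), the pseudouridine synthase of H/ACA particles, averaged 11.2 ± 0.448, 11.6 ± 1.63 and 9.59 ± 0.866 (SD, n = 4), and neither was called in any contrast.

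The genes whose pattern over the 12 embryos was most like the set were ranked by Pearson correlation of log2(TPM + 1) with the mean z score of the 10 genes, among 5786 other genes averaging at least 5 TPM. The 8 highest were Tomm5 (r = 0.963), Rnf7 (0.947), Sept1 (0.946), Rpl30 (0.932), Rpl37rt (0.929), Gnl3 (0.928), Trmt10c (0.923) and 5430416N02Rik (0.920). These values share the same 12 libraries and were picked as the highest of many, so they describe the pattern only. Without the 2 libraries farthest from the median, dKO embryo 1 and cKO embryo 4, r fell to 0.892 for Tomm5, 0.877 for Sept1 and 0.620 for Gnl3. Gnl3 encodes nucleostemin, a nucleolar GTP-binding protein whose gene also hosts snoRNAs, and read 64.1 TPM in dKO embryo 1 against 28.7 to 35.3 in the other dKO embryos, 31.9 to 35.0 in control and 34.0 to 44.6 in cKO.

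Several hosts share bases with a neighbour, and whether the counting used strand is not given in the sources used here. Snhg3 shares 135 exonic bases with Rcc1 on the same strand, which read 15.2 ± 2.77 TPM in the controls, 13.8 ± 3.52 in cKO and 11.2 ± 1.82 in dKO, so the order of the groups was opposite to that of Snhg3. It also shares 705 exonic bases with Gm17300 on the opposite strand (2.63 ± 0.410, 3.24 ± 0.496 and 3.55 ± 0.923). Snhg9 shares 14 exonic bases with the opposite-strand ribosomal protein gene Rps2, which stood at 134 ± 25.9, 144 ± 17.8 and 129.9 ± 8.98 TPM (SD, n = 4). Zfas1 shares 82 bases with Znfx1 and Snhg6 127 with Mcmdc2, both on the opposite strand, and reads of these stretches are uncertain in their origin.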

How the data were processed

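RNA was measured in the pallium of 12 embryos, 4 per genotype. Stranded total RNA libraries were made per the labels. The authors deposited 1 table per embryo of TPM values per gene symbol; the unit is inferred from the values, which are fractional and sum to 1000000 per table. HISAT2 and mm10 are named in the submitters' processing notes. The quantification tool, annotation and strand setting are not given in the sources used here. TPM divides by length within a fixed sum, so abundant short RNAs shift every other gene.

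limma 3.58.1 (R 4.3.3, intensity trend) was fitted to log2(TPM + 1) of the 11764 genes averaging 1 TPM or more, with the 3 genotypes together. A gene was called when its p, adjusted by Benjamini-Hochberg over all of them, was under 0.05. A p-value sets the difference between groups against the spread among embryos, pooled over the genotypes in the fit and moderated towards the trend over all genes. Fold differences on this scale understate the change of low genes. Alternatives were a pseudocount of 0.1, other filters, quantile normalization, protein-coding rescaling (equal summed protein-coding TPM), median-shift centring, fits of 2 groups, a replicate block and leaving out embryos. The members, the lists and these scalings were chosen with earlier results of these data known, the lists from general knowledge. Named are all members, from each other list and contrast the 3 called genes with the largest differences plus Upf1, Smg1, Smg5, Fbl and Dkc1, embedded RNAs with a mean of at least 1 TPM, and the 8 genes most correlated with the members. The values of 1 gene that this rule names are not reported here. Other names (Dancr, Snhg17, Epb41l4aos, the overlapping genes) were chosen after their values were seen. Coordinates and sequences are from GENCODE M21 (mm10), which held 54106 of the 54735 symbols. Tested on simulated data for cKO against control (11764 genes, 200 changed by 1 on the log2 scale), the procedure recovered 185 (92.5%) with 9 false calls. The simulated noise was independent for each gene and embryo, with no shift of all genes and no outlying embryo. The false calls that such features may cause are therefore not covered by these figures. Plots were drawn with matplotlib 3.10.9.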

Additional observations from a re-analysis of the deposited data

Results flagged for a closer look

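Within each genotype, 60 groups of 4 values were searched for 1 embryo that stood apart, taken as a gap to the nearest other embryo that, divided by the group's whole range, passed Dixon's 95% critical value. Chance passes about 1 in 20 such groups. Of the 6 found, 4 were host genes, whose spread among the dKO embryos was in view when they were chosen, so the number is a description. For 3 host genes the embryo was dKO embryo 1: Snhg1 at 64.2 TPM against 21.8 to 24.6 in the other dKO embryos (gap 0.932 of the range), Gas5 at 149 against 91.0 to 96.6 (0.904) and Zfas1 at 21.1 against 10.8 to 12.5 (0.833). For Snhg3 it was cKO embryo 4, at 55.6 TPM against 38.6 to 39.9 (0.925). Snord22 had a value above 0 in 1 cKO embryo, embryo 4 at 3.16 TPM, with 0 in the other 3 (1.00 of the range). The mitochondrial share in dKO embryo 2 was 5.44% against 0.790% to 1.01% (0.952).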

How the results depend on the processing

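Depth limits what can be said of low genes, since TPM holds no read number. Members called, median differences and calls in the other lists were recomputed under 21 alternatives. In cKO against control, members called (3 as deposited) fell to 1 with median-shift centring. In dKO against cKO (2), they numbered 0 with 2 groups only and with no filter, 1 with a mean of at least 5 TPM, and 4 with protein-coding rescaling and with quantile normalization. The share of all genes called is given only for the values as deposited, rescaling and centring. Nothing is read from the member counts under other settings, with embryos left out or with the replicate block. Calls in the other lists in cKO against control (19) came to 11 with a mean of at least 5 TPM, 10 with no filter, 5 with rescaling, 4 with centring and 2 with quantile normalization. In dKO against control (2) they came to 0 with 2 groups only and with no filter, 1 with a mean of at least 5 TPM and with both dKO embryos 1 and 2 left out, 5 with centring, 6 with quantile normalization and 9 with rescaling. In dKO against cKO (16) they came to 10 with centring and 6 with quantile normalization. With a mean of at least 5 TPM required, genes below that level leave the test, among them Snhg10 (4.13 TPM), Snhg18 (3.93) and Nat9 (3.94). The cause of the remaining changes was not tested. Upf3a in cKO changed sign under quantile normalization, to -0.028. Of 34 called differences of named genes outside the set, 4 were called under every alternative and 16 without any one embryo. Leaving out each embryo gave 2 to 4, 3 to 4 and 0 to 3 members called in the 3 contrasts (cKO against control, dKO against control, dKO against cKO), medians of 0.17 to 0.38, 0.24 to 0.52 and -0.03 to 0.29, and 7 to 24, 0 to 2 and 12 to 20 calls in the other lists. Such ranges hide changes of gene and direction. Without dKO embryo 1, the members called in dKO against cKO were Snhg5, Snhg6 and Zfas1, all lower. As deposited they were Snhg9 and Snhg10, both higher. Replicate numbers repeat across genotypes, but the deviations of same-numbered embryos correlated at -0.10 to 0.07, so the numbers do not pair the embryos; with the replicate block, 1 member was called in dKO against cKO and 0 genes of the other lists in dKO against control.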
